A study of Mus musculus with 26 samples.

Results

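Conventional CD4 T cells (Tconv, CD4+Foxp3-) sorted from the draining lymph nodes (dLN) were compared between mice whose regulatory T cells (Treg) can lose the TNF receptor TNFR2 and their controls. The samples were chosen by their labels: 3 libraries labelled Tconv dLN icKO and 3 labelled Tconv dLN Ctrl, 6 of the 26 RNA-seq libraries of the series. All mice were C57BL/6 mice with active experimental autoimmune encephalomyelitis (EAE), a T cell driven model of multiple sclerosis, taken at day 14. Ctrl mice were Foxp3Cre-ERT2, with a Cre recombinase that is expressed from the Foxp3 locus and works only with tamoxifen. The icKO mice were Foxp3Cre-ERT2 x Tnfrsf1bFlox/Flox, and both genotypes received tamoxifen from day 7 to day 14, so the inducible Cre and the drug were common to both groups. The cells measured here lie outside the Foxp3 lineage in which that Cre is active. CNS Tconv cells (4 libraries per genotype) and dLN Treg cells (3 per genotype) of the same genotypes were used as comparisons. CNS Treg cells (3 per genotype) entered the model and are cited for Ide. The file names of 5 of the 8 CNS Tconv libraries disagree with their labels, and the labels were followed. The labels describe the replicates as mice.

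TNFR2, encoded by Tnfrsf1b, binds TNF and lymphotoxin-alpha and signals through TRAF2 to NF-kB. Treg cells carry more of it than resting conventional T cells, and it supports their expansion and suppressive function. In EAE, myelin-specific Tconv cells are primed in the draining lymph nodes, take on Th1 and Th17 programmes, and leave through the lymph and blood to enter the CNS. A bulk lymph node Tconv sample holds mostly naive and central memory cells beside the recently primed ones. In bulk RNA, fewer cells of a type and less RNA per cell cannot be told apart.

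The library labelled icKO replicate 3 stood apart and the results below were computed without it unless stated. It had 7.78 M counts and 6005 genes above 0, while the other 5 libraries had 13.0 to 14.8 M counts and 12982 to 13209 genes. Of 8418 genes with a mean of at least 10 CPM (counts scaled to the library total) in the other 5 libraries, 3119 (37.1%) had no count in it, and 1 of the 8418 had no count in at least 1 of the others. Its Spearman correlation with the other 5, across genes, was 0.647 to 0.664, against 0.983 to 0.988 for the 6 pairs of an icKO and a Ctrl library among them. The pairs of Ctrl libraries reached 0.984 to 0.986 and the remaining pair of icKO libraries 0.984. Genes are not independent replicates, and these values describe the libraries only.

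The sorted identity held in the 5 libraries. Cd3e, a T cell receptor subunit, was at 1054 to 1123 CPM and Cd4 at 959 to 1115 CPM. Foxp3, the transcription factor that defines Treg cells, was at 0.90, 1.03 and 1.13 CPM in Ctrl and 0.57 and 0.74 CPM in icKO libraries, where dLN Treg libraries had 35.1 to 57.7 CPM. Its log2 fold change was -0.62 ± 0.56 (SE), which did not pass the test. The summed CPM of the 14 dendritic cell and MHC class II transcripts was 368 to 999 in Ctrl and 650 to 913 in icKO libraries, with overlapping ranges. Neutrophil markers were near 0, with sums of 3.71 to 9.51 CPM in Ctrl and 2.93 to 4.20 CPM in icKO libraries. B cell marker sums were 49.8 to 71.4 and 57.1 to 61.1 CPM, those of monocytes and macrophages 104 to 254 and 158 to 218 CPM, those of CD8 T and NK cells 304 to 337 and 252 to 325 CPM, those of stroma and endothelium 169 to 174 and 167 to 179 CPM. Erythroid and platelet transcripts summed to 0.07 to 0.94 and 0.15 to 0.37 CPM. Plasma cell transcripts summed to 136 to 151 CPM in Ctrl and 126 to 132 CPM in icKO libraries, so that this small difference did not overlap. Most of that sum was Txndc5, at 140, 138 and 130 CPM in Ctrl and 126 and 111 CPM in icKO libraries. The list's median log2 fold change was 0.04, with 3 genes above 0, Jchain among them (1.56), and 2 below, so the list as a whole was not lower. In icKO replicate 3 the B cell sum was 653 CPM, the monocyte and macrophage sum 3136 CPM and the neutrophil sum 3529 CPM, with Foxp3 at 14.7 CPM, Cd8a at 212 CPM and Cd4 at 570 CPM.

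**Figure D1:**
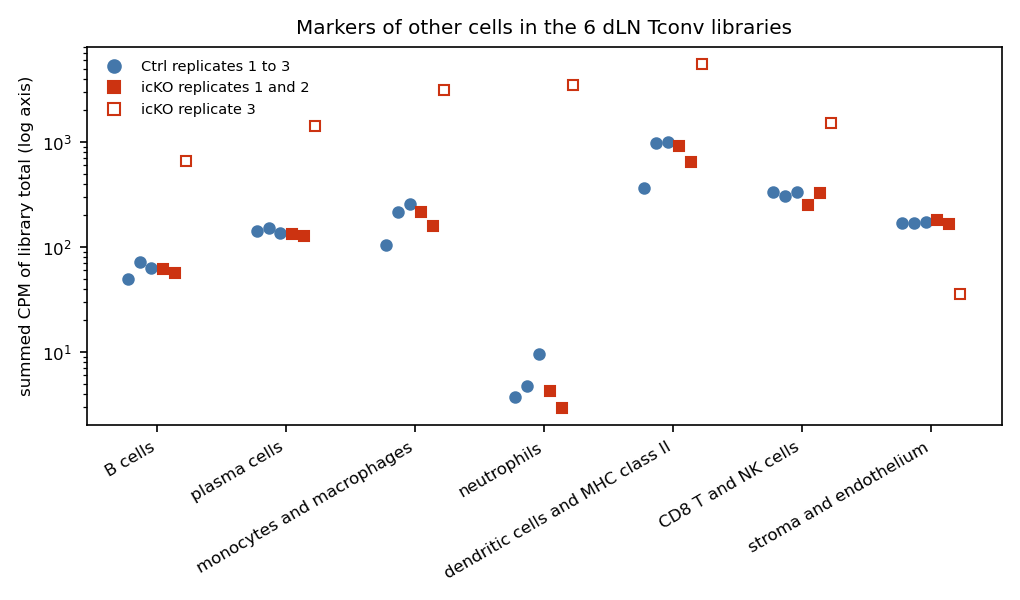
Summed CPM (log axis, relative to each library's total) of the markers of 7 other cell classes in each of the 6 dLN Tconv libraries; filled circles are Ctrl, filled squares icKO replicates 1 and 2, and the open square icKO replicate 3. The 5 filled symbols spread widely in some classes, from 368 to 999 CPM for dendritic cells and MHC class II and from 2.93 to 9.51 CPM for neutrophils. Replicate 3 lies above all of them in 6 classes and below them for stroma and endothelium.

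Tnfrsf1b itself (chr4:145213463-145246870, minus strand, GRCm38) was not different in these cells. It was at 126, 132 and 113 CPM in the Ctrl libraries and 126 and 134 CPM in the icKO libraries. The values of both genotypes interleave, and the log2 fold change was 0.07 ± 0.18 with a 95% interval of -0.31 to 0.45. In dLN Treg cells, in which the Cre is active, it was at 736 to 857 CPM in Ctrl and 618 to 620 CPM in icKO libraries, without overlap, a log2 fold change of -0.36 ± 0.16 (edgeR adjusted p = 1). Reads anywhere in the gene are counted and the floxed exons are not named in the labels, so transcripts without those exons still count and the values do not measure the deletion.

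No gene passed the test in dLN Tconv cells. Of 13500 genes tested with edgeR's quasi-likelihood test, 0 were called at an adjusted p under 0.05 (0%), and the adjusted p of every gene was 1. An unadjusted p under 0.05 was reached by 197 genes (1.46%), a smaller share than the threshold itself. The spread was pooled over all 8 groups and may be larger than that of the dLN Tconv libraries, which can make the test strict. With the dLN Tconv libraries fitted alone, only H2-Q6 was called (edgeR adjusted p = 0.011). That fit also has fewer libraries to estimate the spread, so it does not isolate the effect of pooling on the count. The other tools made few calls, 2 with DESeq2 (0.0148%) and 0 with limma voom, where 565 genes had an unadjusted p under 0.05. Both DESeq2 calls, Apc2 and Chil3, were singled out after their values were seen: Apc2 was at 0, 1.92 and 0.23 CPM in Ctrl and 0 in both icKO libraries, and Chil3 at 0, 0.21 and 0.38 CPM in Ctrl and 0 in both icKO libraries. These are levels of few or no reads. In CNS Tconv cells the same model called 419 genes (3.1%).

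The absence of calls came with narrow intervals for most expressed genes. Of 8524 genes with a mean of at least 10 CPM in 1 group, 7026 (82.4%) had a 95% interval of the log2 fold change that lay between -1 and 1, so that a change of 2-fold or more lay outside it. The median SE of these genes was 0.24 and their median absolute log2 fold change 0.11. For the other 1498 genes the interval reached a 2-fold change or beyond. Both icKO libraries lay above all 3 Ctrl libraries for 678 of the 8524 genes (7.95%) and below all 3 for 730 (8.56%); over all 13500 genes these shares were 8.1% and 8.27%.

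**Figure D2:**
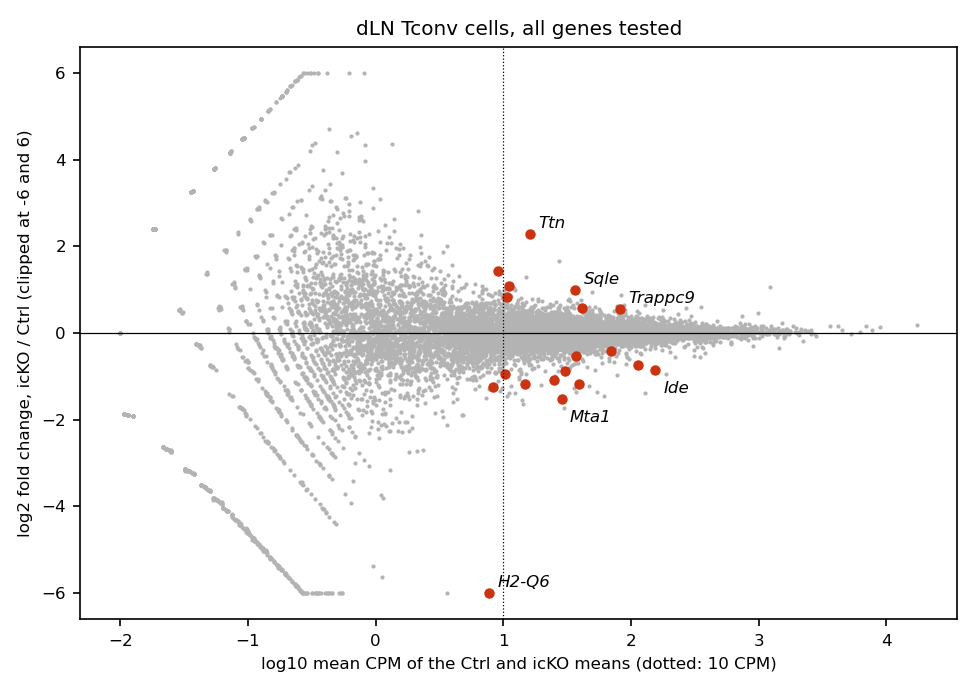
Log2 fold change (icKO over Ctrl, clipped at -6 and 6) against the log10 mean CPM for the 13500 genes tested, with 5 libraries; red points are 19 of the 20 genes chosen by the smallest p at 10 CPM or more. The cloud narrows with level, and H2-Q6, without a count in either icKO library, sits at the lower clip.

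The 20 genes with the smallest unadjusted p among those at 10 CPM or more included 8 higher and 12 lower in icKO cells, and in each of them the 2 icKO libraries lay outside the range of the 3 Ctrl libraries. None was called, choosing by p favours such separation, and they are described here by value.

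The smallest p of these belonged to Sqle (chr15:59315077-59331192, plus strand), which encodes squalene epoxidase, an oxygen-dependent step of cholesterol synthesis under the control of the SREBP2 transcription factor. It was at 23.0, 25.5 and 25.3 CPM in Ctrl and 53.3 and 44.1 CPM in icKO libraries, means of 24.6 ± 1.39 (SD, n = 3) and 48.7 ± 6.53 (SD, n = 2). Both icKO libraries were well above the narrow Ctrl range, and the log2 fold change was 0.98 ± 0.27. When each of the 5 libraries was left out in turn, it ranged from 0.84 to 1.11. In the library left out, icKO replicate 3, Sqle had no count.

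Cholesterol genes as a list followed the same direction without passing the test. Of 22 tested members of the cholesterol list, 0 were called, 19 had a log2 fold change above 0 and 3 below, and the median was 0.31, against 0 over all genes tested. In 8 of the 22 both icKO libraries were above all Ctrl libraries and in 0 below, beside 8.1% and 8.27% over all genes. Fdft1 (squalene synthase) was at 31.4, 24.6 and 21.8 CPM in Ctrl and 37.7 and 35.2 CPM in icKO libraries, and Cyp51 (lanosterol demethylase) at 54.2, 45.2 and 48.2 CPM and at 74.7 and 60.1 CPM. Both were chosen after their values were seen, neither overlapped between the genotypes, and their log2 fold changes were 0.49 and 0.45. The summed CPM of the 22 genes was 969, 889 and 817 in Ctrl and 1207 and 1030 in icKO libraries. The size rested on which icKO library was kept: the median was 0.14 without icKO replicate 1 and 0.47 without icKO replicate 2, and with all 6 libraries it was -0.04 where all genes had a median of -0.36. In CNS Tconv cells the median of the same list was 0.30, with Sqle higher in icKO cells there (1.07 ± 0.21, edgeR adjusted p = 0.0096). The difference between the dLN and CNS effects on Sqle was -0.08 ± 0.35 (edgeR adjusted p = 1). In dLN Treg cells the list's median was 0.13.

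Ide (chr19:37268743-37337852, minus strand), which encodes the insulin-degrading enzyme, was the lower gene with the smallest p. It was at 249, 174 and 181 CPM in Ctrl and 112 and 110 CPM in icKO libraries, a log2 fold change of -0.86 ± 0.26. The 2 icKO values nearly coincide and lie below the lowest control. The same gene was at 343, 294 and 291 CPM in Ctrl and 156, 204 and 177 CPM in icKO libraries of dLN Treg cells, again without overlap (-0.79 ± 0.22, edgeR adjusted p = 1). In CNS Treg cells it was at 268, 196 and 239 CPM in Ctrl and 190, 128 and 98.9 CPM in icKO libraries. In CNS Tconv cells the ranges overlapped, 138 to 223 CPM in Ctrl and 164 to 280 CPM in icKO libraries (0.19 ± 0.19). The difference between the dLN and CNS effects in Tconv cells was -1.05 ± 0.32 (edgeR adjusted p = 0.34). Among the libraries used, Ide was thus lower in every icKO library than in every Ctrl library of 3 of the 4 populations. In icKO replicate 3 of dLN Tconv, left out here, it was at 227 CPM of the library total. That lies inside the control range on the same scale, 178 to 261 CPM, so the separation in dLN Tconv cells does not hold with that library.

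Ttn, the gene of the muscle protein titin, had a log2 fold change of 2.29 ± 0.68. It was at 4.82, 6.11 and 5.48 CPM in Ctrl and 39.5 and 14.0 CPM in icKO libraries. Both icKO values were above the controls but far from each other, and without icKO replicate 1 the fold change was the smallest of the 5 left-out fits, at 1.36 on the log2 scale. In control dLN Treg cells Ttn was at 115 to 130 CPM, and the part of Treg cells in this difference was not tested. Trappc9, a subunit of a vesicle-tethering complex, was at 68.6, 65.1 and 65.9 CPM in Ctrl and 100.3 and 95.5 CPM in icKO libraries, a log2 fold change of 0.56 ± 0.17 with little spread within either genotype. Arhgef12 (a guanine nucleotide exchange factor), Marf1 (a ribonuclease), Acer3 (an alkaline ceramidase) and Syne2 (the nuclear envelope protein nesprin-2) were also in the higher set, with log2 fold changes of 1.43, 1.08, 0.82 and 0.57.

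The other lower genes had varied functions. Il18rap, the accessory chain of the IL-18 receptor on Th1 cells, was at 70.0, 62.8 and 29.7 CPM in Ctrl and 27.97 and 19.7 CPM in icKO libraries. The lowest control nearly met the higher icKO library, and the log2 fold change was -1.18 ± 0.45. Anxa1 (annexin A1), Adam8 (a leukocyte metalloprotease), Ltb4r1 (the leukotriene B4 receptor BLT1) and Lamc1 (a laminin chain) had log2 fold changes of -0.88, -1.08, -1.16 and -0.94. Mta1, a subunit of the NuRD chromatin complex, was at 57.1, 26.9 and 43.7 CPM in Ctrl and 13.3 and 16.4 CPM in icKO libraries (-1.52 ± 0.58). Coro2a, an actin-binding coronin, was at 169, 118 and 139 CPM in Ctrl and 64.0 and 106 CPM in icKO libraries (-0.74 ± 0.24), a smaller difference with nearly adjoining ranges. Mex3d (an RNA-binding protein), Tmem129 (an E3 ubiquitin ligase) and Luc7l (a splicing factor) had log2 fold changes of -1.23, -0.54 and -0.43.

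**Figure D3:**
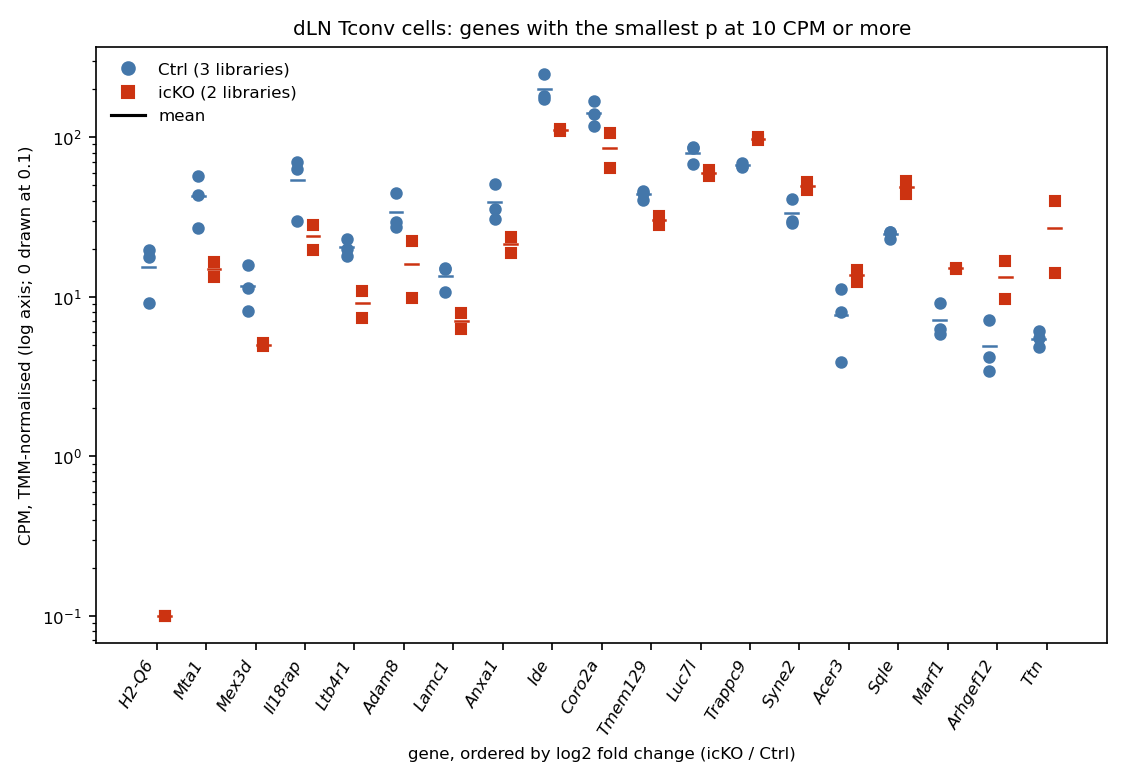
CPM on a log axis of 19 of the 20 genes with the smallest p, in each Ctrl library (circles) and each icKO library (squares) of dLN Tconv cells without icKO replicate 3; bars are group means and 0 is drawn at 0.1. The 2 icKO values lie outside the Ctrl range for every gene shown, as the choice by p favours, with small gaps for Coro2a and Il18rap and wide ones for Ttn and H2-Q6.

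H2-Q6, a nonclassical MHC class I gene of the Qa-2 cluster (chr17:35424850-35430055, plus strand), was the only gene of the 20 without a count in both icKO libraries. It was at 9.12, 19.6 and 17.7 CPM in Ctrl and 0 in both icKO libraries, at least 70.7-fold lower against a floor of 3 counts per library (0.219 CPM). Reads from similar gene copies, such as H2-Q6 and H2-Q7, can be assigned to the wrong copy. Whether this happened here was not tested, and the H2-Q6 value is uncertain. Over the 981 coding bases, the aligned H2-Q7 transcript of the GENCODE M21 annotation was 95.4% identical, and 197 of the 907 stretches of 75 bases in H2-Q6 (21.7%) occurred in it letter for letter. H2-Q8 and H2-Q9 were not aligned. The sequences show the 60 coding bases (76 to 135 of the H2-Q6 coding sequence, 5′ to 3′) with the most differences in the alignment. Reads from them could be told apart between H2-Q6 and H2-Q7, and the 10 differing bases are in capitals.
H2-Q6: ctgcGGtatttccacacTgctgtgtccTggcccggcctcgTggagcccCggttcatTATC
H2-Q7: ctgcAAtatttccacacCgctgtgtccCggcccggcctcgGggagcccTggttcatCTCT
Neighbouring copies, chosen after their values were seen, differed in direction. H2-Q7 was at 238, 239 and 289 CPM in Ctrl and 295 and 372 CPM in icKO libraries, and H2-Q9 at 375, 319 and 400 CPM in Ctrl and 266 and 243 CPM in icKO libraries. Summed over H2-Q6, H2-Q7, H2-Q8 and H2-Q9, the level was 703, 653 and 800 CPM in Ctrl and 664 and 725 CPM in icKO libraries, with full overlap. H2-Q6 was also at or near 0 in some libraries of both genotypes elsewhere, such as Ctrl replicate 2 in CNS Tconv cells and icKO replicate 2 in dLN Treg cells.

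Transcripts of T cell subsets and states were tested as further lists, none of which held a called gene in dLN Tconv cells. For the naive and central T cell programme, the lymph node homing and quiescence genes, the median log2 fold change of 20 genes was 0.03. Ccr7, the chemokine receptor for lymph node entry and retention, was at 873, 1043 and 1169 CPM in Ctrl and 1151 and 1086 CPM in icKO libraries, and Foxp1, a quiescence factor, at 223, 253 and 288 CPM and at 291 and 289 CPM. The Ccr7 values overlap between the genotypes, and the Foxp1 ranges all but touch. Their log2 fold changes were 0.12 and 0.19, with 95% intervals of -0.51 to 0.75 and -0.16 to 0.53.

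Th1 genes had a median of -0.15 over 17 genes, 6 above and 11 below 0, and both icKO libraries were below all controls in 4 of the 17 and above in 0, beside 8.27% and 8.1% of all genes. Tbx21, encoding T-bet, the master factor of Th1 cells, was at 44.7, 37.1 and 20.4 CPM in Ctrl and 15.1 and 19.3 CPM in icKO libraries (-0.99 ± 0.44, unadjusted p = 0.034 with edgeR, adjusted p = 1). Cxcr6, a homing receptor of effector cells chosen after its values were seen, was at 306, 218 and 267 CPM in Ctrl and 163 and 197 CPM in icKO libraries (-0.55 ± 0.33). Both genes were lower in both icKO libraries, as Il18rap was. The list's median was -0.04 without icKO replicate 1, -0.69 without icKO replicate 2 and -0.39 with all 6 libraries. Ifng, the Th1 effector cytokine, was low in these cells, at 11.2, 7.07 and 2.63 CPM in Ctrl and 1.79 and 8.08 CPM in icKO libraries, and its 95% interval of -3.07 to 2.04 allows a large change either way.

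Th17, Th2 and Tfh lists had medians of -0.07, -0.04 and 0.10 over 16, 8 and 15 genes. Il17a, the signature cytokine of Th17 cells, was at 0, 0 and 0.83 CPM in Ctrl and 0 and 1.04 CPM in icKO libraries. Csf2, encoding GM-CSF, a cytokine that EAE depends on, was at 0.45, 0.41 and 1.58 CPM in Ctrl and 0.65 and 0.44 CPM in icKO libraries. Both genes overlap between the genotypes, and the 95% intervals of their log2 fold changes were wide, -2.37 to 4.24 for Il17a and -4.26 to 3.19 for Csf2. Of 18 tested cytokine genes the median was 0.04, and with icKO replicate 2 left out it was -0.30.

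Of 40 cell cycle genes, 3 had a log2 fold change above 0 and 37 below, with a median of -0.28, and both icKO libraries were below all controls in 7 and above in 0, beside 8.27% and 8.1% of all genes. Their summed CPM was 3364, 2445 and 3030 in Ctrl and 2325 and 2697 in icKO libraries, so that icKO replicate 2 lay inside the control range. Prc1, a regulator of cytokinesis, was at 49.8, 24.6 and 44.5 CPM in Ctrl and 23.1 and 28.6 CPM in icKO libraries, and Plk1, a mitotic kinase, at 54.5, 27.0 and 43.6 CPM and at 16.2 and 30.4 CPM. Ctrl replicate 2 was close to the icKO libraries for Prc1 and Plk1, and the list's median was -0.12 without icKO replicate 1, -0.55 without icKO replicate 2, -0.13 without Ctrl replicate 1 and -0.42 without Ctrl replicate 2. With all 6 libraries it was 0.00, against -0.36 for all genes.

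Interferon-response genes differed between the icKO libraries more than between the genotypes. The 31 genes of the type I interferon response had a median of 0.19, with 28 above 0 and 3 below, and summed to 3607, 2728 and 3932 CPM in Ctrl and 2934 and 4976 CPM in icKO libraries. Without icKO replicate 2 the median was -0.28, the opposite direction, and without icKO replicate 1 it was 0.55. The GTPases and factors induced by interferon-gamma had a median of 0.21 over 22 genes, -0.03 without icKO replicate 2. Samd9l, an interferon-induced antiviral protein, was at 55.3, 59.8 and 67.5 CPM in Ctrl and 87.6 and 101.2 CPM in icKO libraries, and was the member with the smallest p (0.63 ± 0.30, edgeR adjusted p = 1).

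The 16 TNF receptor genes had a median log2 fold change of 0.01, with 8 above and 8 below 0. The 25 NF-kB genes had a median of 0.08, with 19 above and 6 below 0. Both icKO libraries were above all controls for 1 of the 25 and below for 0, beside 8.1% and 8.27% of all genes. Tnf, the ligand of TNFR2, was at 27.1, 26.8 and 21.2 CPM in Ctrl and 28.9 and 32.2 CPM in icKO libraries, and Tnfrsf1a, the gene of the other TNF receptor, had a log2 fold change of -0.25 ± 0.25. Tnfsf14, encoding the TNF family ligand LIGHT, was at 23.3, 22.6 and 20.9 CPM in Ctrl and 12.4 and 16.2 CPM in icKO libraries (-0.64 ± 0.28). Tnfsf14 was lower in both icKO libraries, with edgeR adjusted p = 1 like all genes.

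Among 20 activation and inhibitory receptors both icKO libraries were below all controls for 4 and above for 0, and among 19 homing genes below for 4 and above for 1, beside 8.27% and 8.1% of all genes. The activation list had a median of -0.04, and its member Il2ra, the high-affinity IL-2 receptor chain, was at 39.8, 24.1 and 21.2 CPM in Ctrl and 18.8 and 20.4 CPM in icKO libraries. Ccr2, the receptor that guides monocytes and effector T cells to inflamed tissue, was at 104, 74.1 and 67.1 CPM in Ctrl and 50.4 and 53.8 CPM in icKO libraries (-0.65 ± 0.30), in the homing list, whose median was -0.06. Jun, an AP-1 factor of the immediate early response, was at 5.91, 15.6 and 4.50 CPM in Ctrl and 20.6 and 22.2 CPM in icKO libraries (1.30 ± 0.58), while its list of 22 genes had a median of 0.03. Treg core genes had a median of -0.11 over 22 genes, with 3 below and 0 above the controls in both icKO libraries, beside 8.27% and 8.1% of all genes.

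Housekeeping programmes showed little difference. The medians were 0.00 for 49 oxidative phosphorylation genes, -0.02 for 23 genes of glycolysis and HIF1A targets, 0.01 for 22 genes of the ATF4 amino acid response, 0.01 for 20 survival and death genes, 0.04 for 20 heat shock and folding genes and 0.02 for 20 genes of the T cell receptor and its proximal signalling. The 79 cytosolic ribosomal protein genes had a median of 0.04, with 66 above 0 and 13 below, but summed to 50442 CPM in Ctrl replicate 1 and 67109 and 66984 CPM in the other controls, and to 59872 and 65485 CPM in the icKO libraries. No ribosomal protein gene had both icKO libraries above or both below all controls, beside 8.1% and 8.27% of all genes.

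**Figure D4:**
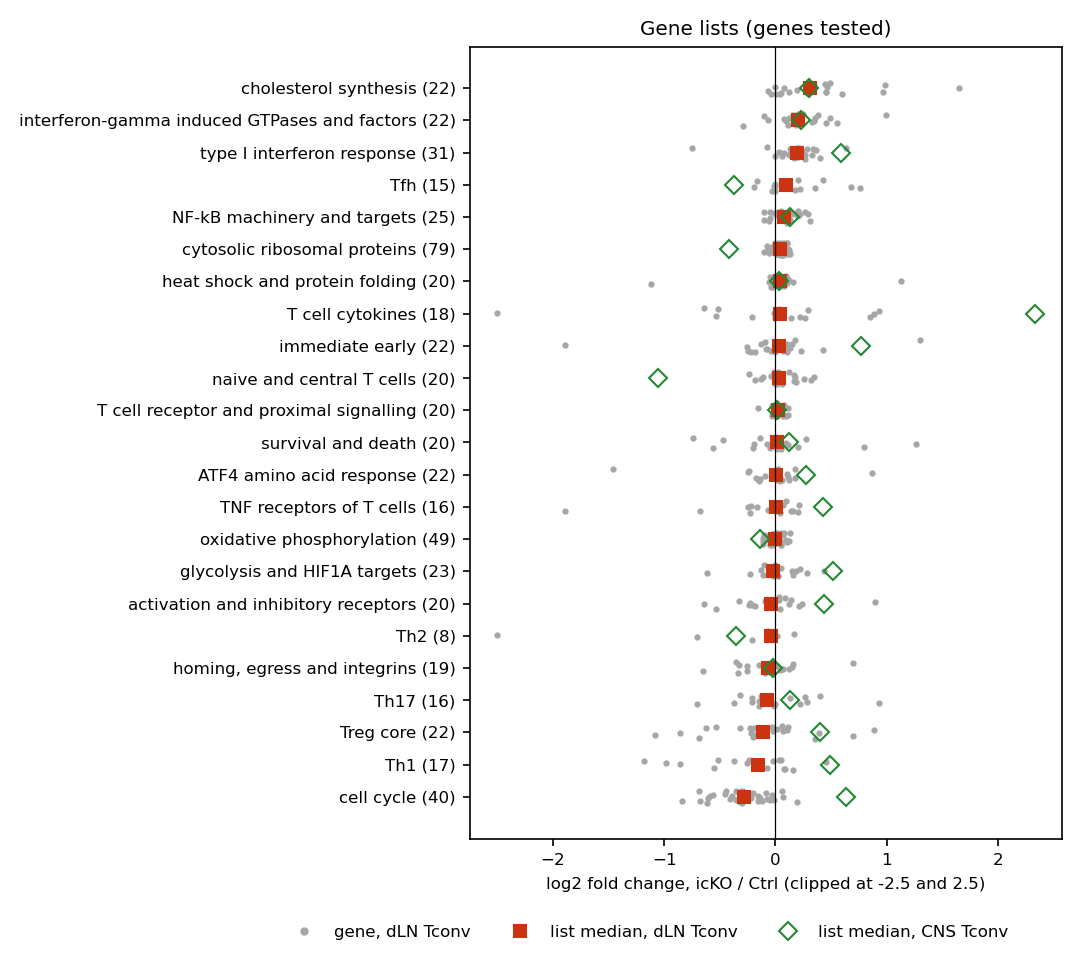
Log2 fold changes (icKO over Ctrl, clipped at -2.5 and 2.5) of the genes of 23 lists in dLN Tconv cells (grey points), with the list median in dLN Tconv cells (red squares) and in CNS Tconv cells (green diamonds). The red squares run from -0.28 (cell cycle) to 0.31 (cholesterol synthesis), while the diamonds run from -1.06 (naive and central T cells) to 2.33 (T cell cytokines).

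Whether the genotype difference in the lymph node differed from that in the CNS was tested gene by gene in the same model. The contrast of the 2 differences called 0 of 13500 genes (0%) with edgeR, and 1101 genes (8.16%) had an unadjusted p under 0.05. The count was 76 with DESeq2 and 24 with limma voom. Foxp1, with an adjusted p of 0.063, and Ccr7, with 0.078, were among the smallest, and Ccr7 was chosen after its values were seen. Ccr7 was at 602 to 765 CPM in CNS Ctrl and 105 to 325 CPM in CNS icKO libraries, against the overlapping dLN levels given above. Its dLN log2 fold change exceeded the CNS one by 2.11 ± 0.39, and that of Foxp1 by 1.22 ± 0.21. Both passed the threshold with no filter on low counts (edgeR adjusted p = 0.042 each), and Foxp1 also with the stricter filter (0.047). In CNS Tconv cells alone both were lower in icKO cells, with edgeR adjusted p of 0.00025 for Foxp1 and 0.00019 for Ccr7.

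The genes called in CNS Tconv cells had dLN values close to 0. These calls, like the contrast above, rest on the labels of the CNS Tconv libraries, 5 of which have file names that disagree. Of 213 genes higher in CNS icKO cells, with a median log2 fold change of 0.80 there, 86 were above and 127 below 0 in the dLN, and the dLN median was -0.05. Of 206 genes lower in CNS icKO cells, with a median of -0.90, 112 were above and 94 below 0 in the dLN, with a median of 0.01. Over all genes tested 47.4% were above 0. The 95% interval of the dLN difference left out the CNS value for 201 of the 213 and 201 of the 206 genes, against 2415 of all 13500. Choosing genes by their CNS difference favours large CNS values, and with them this count. Il18rap was among those with opposite signs: it was 1.41 ± 0.34 in the CNS and -1.18 ± 0.45 in the dLN, a difference of -2.60 ± 0.57 (edgeR adjusted p = 0.19). Lamc1 (1.03 ± 0.23 in the CNS, difference -1.97), Ccr2 (0.90 ± 0.23, difference -1.56) and Il2ra (1.19 ± 0.22, difference -1.72) had the same pattern of signs. None of these 4 differences passed the adjusted threshold with edgeR or limma voom, and all 4 did with DESeq2 (adjusted p = 0.0022 for Il18rap and Lamc1, 0.0033 for Il2ra and 0.015 for Ccr2). Tnfrsf1b was higher in CNS icKO Tconv cells (0.72 ± 0.14, edgeR adjusted p = 0.0091) and 0.07 in the dLN.

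**Figure D5:**
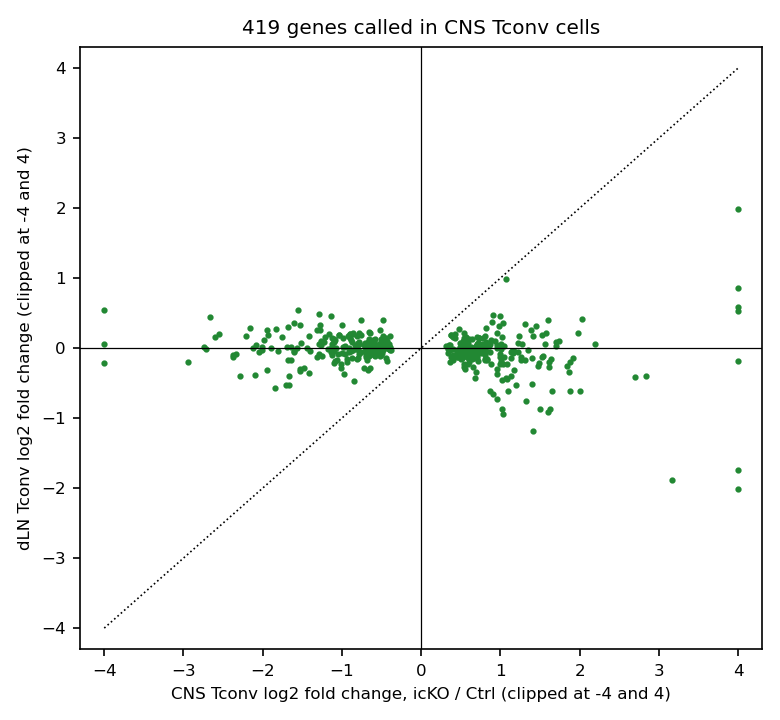
Log2 fold changes (icKO over Ctrl) in dLN Tconv cells against those in CNS Tconv cells for the 419 genes called in the CNS, both axes clipped at -4 and 4; the dotted line marks equal values. The points lie along the horizontal axis, with dLN medians of -0.05 for genes higher and 0.01 for genes lower in the CNS, and Sqle lies near the dotted line.

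The genotype difference in dLN Tconv cells was also set against that in dLN Treg cells. The contrast called 0 of 13500 genes (0%) with edgeR, 209 (1.55%) had an unadjusted p under 0.05, DESeq2 called 3 (Apc2, Chil3 and Perp, all with negative fitted values, chosen after their values were seen) and limma voom 0. Ttn had a difference of 2.92 ± 0.90 between the cell types and Ide one of -0.07 ± 0.33.

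With icKO replicate 3 included, edgeR called 0 of 13054 genes, 1092 had an unadjusted p under 0.05, and the spread was larger, with a common dispersion of 0.364 against 0.142. The median log2 fold change of all genes moved to -0.36, in a library with so many genes at 0. Of the 20 genes named by the smallest p, 16 kept their sign and 4 (Syne2, Ltb4r1, Mex3d and Anxa1) changed it, and 10 of the 20 had no count in that library. Trappc9 was at 370 CPM and Ltb4r1 at 126 CPM in it, above all 5 other libraries, while Tnfrsf1b was at 3.22 CPM. Sqle had a log2 fold change of 0.40 with it, and Ide one of -0.51.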

How the data were processed

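Sorted CD4 T cells were lysed and their polyadenylated RNA turned into SMART-Seq v4 and Nextera libraries, without strand information, per the labels' protocols. Per the submitters' processing notes, the tools were FastQC, Trimmomatic, STAR 2.5.3a and RSEM 1.2.28, with mm10. The deposited expected counts per gene (24848 genes) were rounded to whole numbers. The authors' TPM and FPKM columns, deposited beside them, were not used. In edgeR 4.0.16 (R 4.3.3), 25 libraries (12.4 to 18.5 M counts) were fitted in 1 quasi-likelihood model of 8 groups, after filterByExpr (13500 genes) and TMM scaling. Calls needed a Benjamini-Hochberg adjusted p under 0.05. SE is the log2 fold change over the square root of F, and intervals are 95%. With 3 controls and 2 icKO libraries, p-values rest on the spread pooled over all groups. CPM values are TMM-normalised, except for replicate 3 and the sums over gene lists, which are relative to the library total. Floors of 3 counts cover counting error only.

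Named genes were Tnfrsf1b, Foxp3, the 20 smallest p at 10 CPM or more in 1 group (fewer than 20 were called), and up to 3 members per list. Symbols of unnamed genes were left out. A few of the genes so chosen are left out of the text. The comparison, the 31 lists and this rule were chosen with earlier results of these data known. Alternatives were DESeq2 1.42.0 size factors and its Wald test, limma 3.58.1 voom, other filters, the compared groups alone, a replicate block, all 26 libraries, leaving out 5 CNS Tconv libraries whose file names disagree with their labels, and each library in turn. The code was tested on simulated data. Positions and transcripts came from GENCODE M21 (GRCm38). Plots were drawn with matplotlib 3.10.9.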

Additional observations from a re-analysis of the deposited data

Results flagged for a closer look

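The library labelled icKO replicate 3, which the comparisons leave out, held transcripts of other cells above the highest control for 6 of the 8 marker lists. The summed CPM of its library total was 653 for B cells (controls up to 71.4), 1410 for plasma cells (up to 151), 3136 for monocytes and macrophages (up to 254) and 3529 for neutrophils (up to 9.51). Dendritic cell and MHC class II transcripts summed to 5522 CPM (up to 999) and those of CD8 T and NK cells to 1520 CPM (up to 337). Its Foxp3 level was 14.7 CPM. The source of these transcripts was not tested.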

How the results depend on the processing

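The count of called genes in dLN Tconv cells was 0 with all 26 libraries, DESeq2 size factors, limma voom, both other filters, without the 5 CNS Tconv libraries and when each library was left out. It was 1 with the compared groups alone (H2-Q6, -10.77, adjusted p = 0.011) and 2 with the DESeq2 Wald test (Apc2 at -19.66 and Chil3 at -22.78, both fitted values of genes at 0 in icKO libraries and no bounds). A model with the replicate number as a block called 0 genes in each of the 3 contrasts. Same-numbered Ctrl and icKO libraries of dLN Tconv cells did not deviate together (correlations of -0.24 and -0.36), and the numbers were not taken as pairs. The deviations of 2 icKO libraries from their mean mirror each other, so these values are not separate checks. Whether libraries of different populations came from the same mice was not tested. For the dLN difference minus the CNS difference the count was 4 with the compared groups alone (Ctsw, Klrc1, Lilrb4a and Nabp1), 76 with DESeq2, 24 with limma voom, 3 with no filter, 2 with 10 CPM in 3 libraries and 12 without the 5 CNS Tconv libraries; leaving out 1 library gave 0 to 9, with 1, 4 and 9 calls without CNS Ctrl replicate 1, CNS Ctrl replicate 2 and CNS icKO replicate 2. For dLN Tconv minus dLN Treg it was 3 with DESeq2 and 0 to 1 when 1 library was left out (Slpi, without dLN Treg icKO replicate 1).

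Including icKO replicate 3, in the model of 26 libraries and in that of the compared groups alone, turned the log2 fold change of Tnfrsf1b (-0.50 and -0.50), Foxp3 (2.20 and 2.18), Syne2 (-0.0082 and -0.0071), Ltb4r1 (1.08 and 1.06), Mex3d (1.63 and 1.60), Anxa1 (0.58 and 0.55), Fdft1 (-0.069 and -0.071), Cyp51 (-0.12 and -0.12), Ifng (2.75 and 2.72), Foxp1 (-0.17 and -0.17), Il2ra (1.34 and 1.32), Tnfsf14 (2.04 and 2.01), Tnf (-0.29 and -0.29) and Tnfrsf1a (0.032 and 0.019). It also turned Chil3 (9.19) in the former. Leaving out 1 library gave -1.96 to 0.21 for Ifng, -0.85 to 0.34 for Csf2 and -5.02 to 5.95 for Il17a. The cause was not tested. With 1 icKO library left, that library is assumed to vary like the other groups. Il17a and Csf2 rest on few reads, and 2 usable icKO libraries limit all comparisons.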
